A study of Mus musculus with 4 samples.

Results

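The regions described here are the CUT&RUN peaks of 3 segments of the mouse genome: chromosome 3 from 90 to 100 Mb, chromosome 9 from 20 to 30 Mb and chromosome 19 from 40 to 50 Mb, on the mm9 build. A peak was a member if its centre lay in a segment. This held for 150 of 7327 peaks listed with an antibody against GFP and for 106 of 3410 peaks listed with an antibody against Myb, which is 256 of 10737 peaks in all. The segments were chosen by measured values, namely because their peaks stood in early rows of both lists. Row positions are therefore given as a description, with no test.

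Both libraries came from MEL cells, a mouse erythroleukemia line of immature red cell precursors. The anti-GFP list came from cells labelled Myb-GFP and a GFP antibody from Sigma, and the anti-Myb list from MEL cells and a Myb antibody from Abcam. The labels name no clone, strain or allele beyond this, and each list is 1 library of its group. The series' other libraries, anti-GFP in MEL without the Myb-GFP label and IgRab in MEL with no antibody, were not analysed here, so no control level can be set beside the values. A difference between the lists has no replicate check, and read depth per peak is unknown.

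MYB is a transcription factor of immature blood cells. It keeps erythroid precursors dividing, acts at both promoters and distal enhancers, and falls as red cells mature. In CUT&RUN an antibody brings a nuclease to the protein on chromatin, and the DNA cut free there is sequenced, so a peak marks a place where fragments piled up. The files list peaks by position only. All anti-GFP peaks were 337 bp wide, all anti-Myb peaks were 313 bp wide, and every score was 1. Row position below is the row of a peak as a percent of the length of its list, so that a small value is an early row. The files do not state what orders the rows. No genome sequence or annotation of mm9 was used here, so peaks are named by coordinates and no gene is assigned to them.

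The chromosome 9 segment had the earliest rows of the 3, and nearly all of them lay in its first 3 Mb. Its 34 anti-GFP peaks ran from row position 0.041% to 93.6%, with a median of 8.0%, and its 19 anti-Myb peaks from 0.235% to 57.9%, with a median of 7.60%. On the rest of chromosome 9 the medians were 53.5% over 369 anti-GFP peaks and 44.7% over 168 anti-Myb peaks. The first 10% of the anti-GFP list, which holds 9.99% of all its peaks, contained 18 of the 34 members (52.9%, exact 95% interval 35.1% to 70.2%) and 30 of the 369 other peaks of the chromosome (8.13%). For anti-Myb, with 10.0% of all peaks, it contained 10 of 19 members (52.6%, 28.9% to 75.6%) and 15 of 168 others (8.93%). These shares restate the choice of the segment.

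In steps of 1 Mb, the anti-GFP list had 6, 16 and 6 peaks from 20 to 23 Mb of chromosome 9, and the anti-Myb list had 6, 9 and 3. The 6 anti-GFP peaks between 22 and 23 Mb all stood between 0.041% and 5.99%. Past 23 Mb only 6 anti-GFP peaks and 1 anti-Myb peak were listed, and none stood in the first 10% of its list. The earliest anti-GFP rows were row 3 at chr9:22018676-22019012, row 5 at chr9:22193924-22194260 and row 56 at chr9:21921134-21921470. The first of these overlapped an anti-Myb peak, the second lay at a distance of 64.0 kb from the closest one, and the third at 97.4 kb. The earliest anti-Myb rows were row 8 at chr9:21117954-21118266, row 16 at chr9:20833851-20834163 and row 44 at chr9:21068807-21069119. None of them overlapped an anti-GFP peak. Row 44 missed one by a gap of 81 bp, while row 16 was 151 kb from the closest anti-GFP centre.

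**Figure D1:**
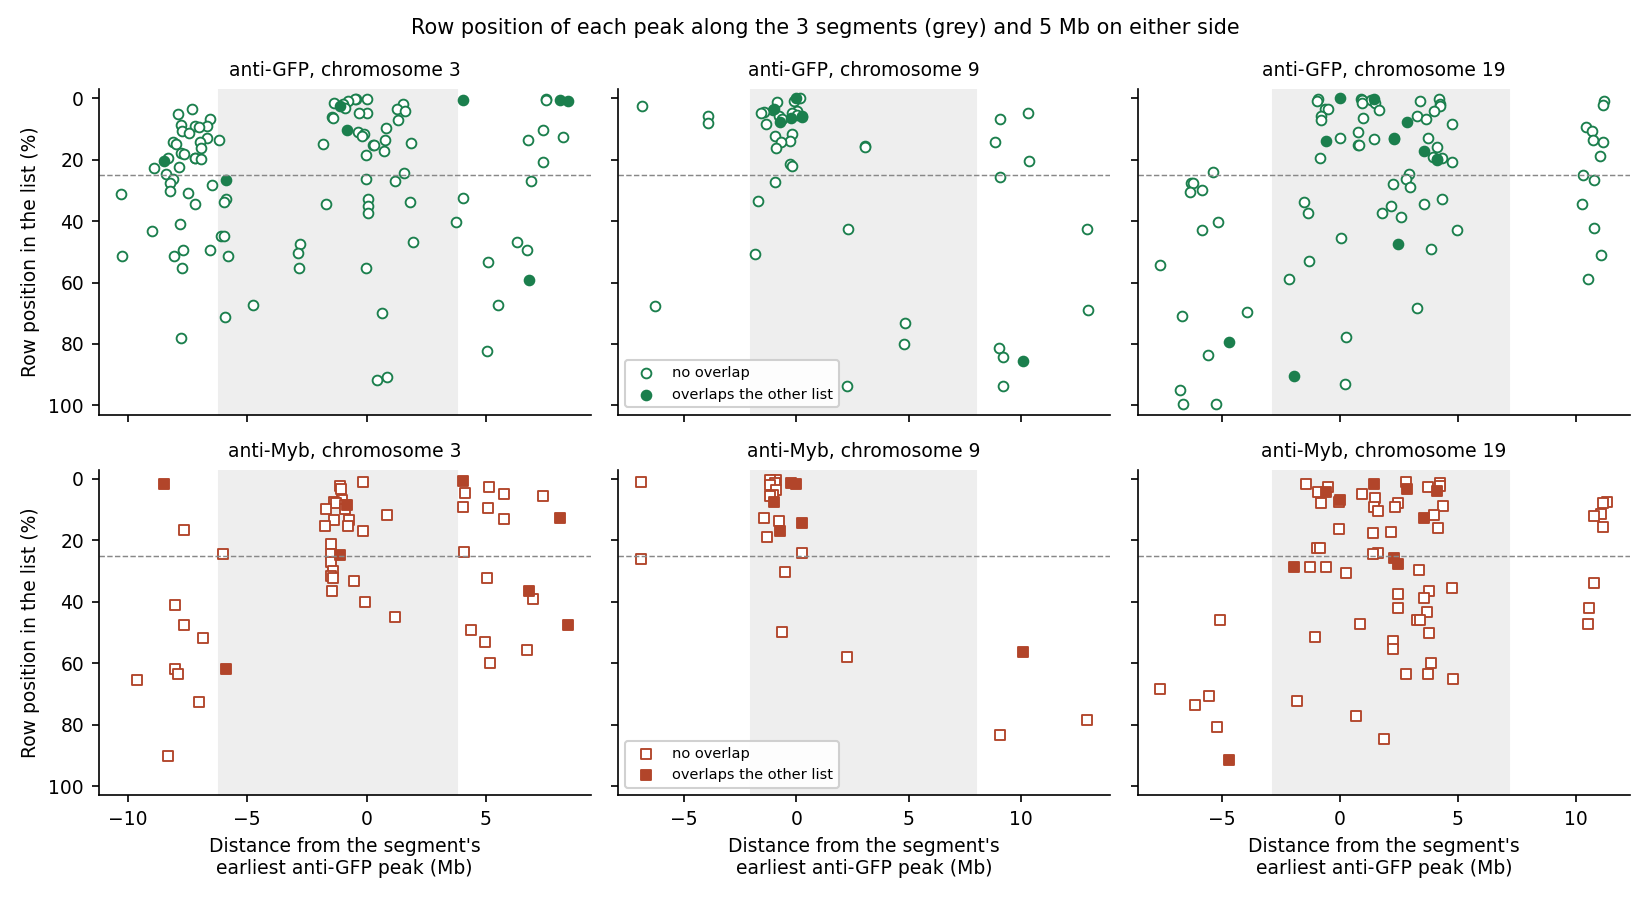
Row position (percent of the list, early rows at the top) of every peak in the 3 segments (grey) and 5 Mb on either side, against the distance in Mb from the earliest anti-GFP peak of the segment; circles are anti-GFP and squares anti-Myb peaks, filled where they overlap the other list, and the dashed line marks 25%. On chromosome 9 the early runs of both lists at the 25% level, defined below, end together, with 1997 kb to the next anti-GFP peak. Anti-GFP peaks on the early side of the dashed line are also listed past this gap, in the segment and above it. On chromosome 3 the anti-GFP peaks from 88 to 90 Mb have medians of 18.8% and 15.2%. Later rows separate them from the early peaks of the segment.

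The chromosome 3 segment held 54 anti-GFP and 29 anti-Myb peaks. Row positions ran from 0.0955% to 91.9% with a median of 16.3% for anti-GFP, and from 1.14% to 61.9% with a median of 15.3% for anti-Myb. The medians of the rest of the chromosome were 42.3% over 236 peaks and 51.0% over 140 peaks. The first 10% of rows held 17 of the 54 anti-GFP members and 10 of the 29 anti-Myb members, against 29 of 236 and 14 of 140 on the rest of the chromosome. The earliest rows lay between 94 and 98 Mb, but the lists did not have their peaks in the same places there. From 94 to 95 Mb there were 5 anti-GFP and 12 anti-Myb peaks, from 95 to 96 Mb 9 and 10, and from 96 to 97 Mb 16 and 3. Median positions in these steps were 6.59%, 2.61% and 17.8% for anti-GFP and 22.9%, 9.09% and 16.8% for anti-Myb. A further 8 anti-GFP peaks from 97 to 98 Mb had a median of 8.41%, beside 2 anti-Myb peaks at 11.7% and 45.0%.

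None of the earliest peaks of chromosome 3 was shared. The anti-GFP rows 7, 8 and 18 were chr3:96205548-96205884, chr3:95761583-95761919 and chr3:95732430-95732766, each more than 46 kb from any anti-Myb centre. The anti-Myb rows 39, 80 and 108 were chr3:96066929-96067241, chr3:95114951-95115263 and chr3:95116545-95116857, and the closest anti-GFP centre was 14.8 kb away from the first. Rows 80 and 108 were neighbours in position. All 29 anti-Myb members had an anti-GFP centre within 100 kb (exact 95% interval 88.1% to 100%). On the rest of the chromosome it was 110 of 140 anti-Myb peaks (78.6%, 70.8% to 85.1%), and in the whole list 85.6%. On chromosome 9 this share was lower in the segment than on the rest (78.9% against 84.5%), and on chromosome 19 it was 96.6% against 92.0%. In the other direction on chromosome 3 it was 32 of 54 anti-GFP members (59.3%, 45.0% to 72.4%) against 136 of 236 (57.6%), with 57.5% in the whole list. The density of anti-GFP peaks here was 3.18 times that of the rest of the chromosome, and its part in the first of these shares was not tested.

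The chromosome 19 segment held the most members, 62 anti-GFP and 58 anti-Myb peaks. The segment thus held 62 of the 276 anti-GFP peaks of the chromosome (22.5%) and 58 of its 145 anti-Myb peaks (40%). Row positions ran from 0.0546% to 93.1% with a median of 14.6% for anti-GFP, and from 0.850% to 84.5% with a median of 23.3% for anti-Myb. On the rest of the chromosome the medians were 45.97% over 214 peaks and 55.4% over 87 peaks. The first 10% of rows held 24 of 62 and 20 of 58 members, against 22 of 214 and 6 of 87 other peaks. Early and late rows were more mixed here than on chromosome 9. In the step from 44 to 45 Mb the 6 anti-GFP peaks had a median of 2.65% and the 8 anti-Myb peaks of 13.9%. From 45 to 46 Mb the medians were 27.1% over 10 and 26.8% over 12 peaks.

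On chromosome 19 the earliest anti-GFP members were row 4 at chr19:42827291-42827627, row 22 at chr19:44271821-44272157 and row 23 at chr19:47036388-47036724. Rows 4 and 22 overlapped an anti-Myb peak, and row 23 was 21.9 kb from one. The earliest anti-Myb members were row 29 at chr19:45649176-45649488, row 51 at chr19:47062947-47063259 and row 55 at chr19:41385485-41385797. None of these overlapped, but rows 29 and 51 lay 205 bp and 30 bp from the edge of an anti-GFP peak, and row 55 was 47.5 kb from an anti-GFP centre. The first 2 rows of the whole anti-GFP list were also on chromosome 19, outside the segment.

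The borders at whole 10 Mb were not the edges of the early stretches. For edges within each list, an early run was taken as the stretch of neighbouring peaks of a chromosome with the highest sum of 25 minus row position in percent. On chromosome 9 both runs ended at the same place. The last anti-GFP peak of the run was chr9:22280350-22280686 (row 417) and the last anti-Myb peak chr9:22272489-22272801 (row 486), with ends 7.88 kb apart. The following peaks were chr9:24277294-24277630 (row 6861, 93.6%) and chr9:24292991-24293303 (row 1976, 57.9%), 1997 kb and 2020.5 kb further on. The lower edges differed by 6.12 Mb and lay below the segment: the anti-GFP run began at 7764183 and the anti-Myb run at 13879826. Below 20 Mb these runs held 14 anti-GFP peaks with a median of 7.77% and 6 anti-Myb peaks with a median of 16.9%. The lower border of the chromosome 9 segment thus fell inside both runs, but in a stretch of 2.09 Mb without a peak of either list. The runs take no account of distance between peaks. The anti-Myb peaks closest to this border lay 4.88 Mb below and 0.562 Mb above it.

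On chromosome 19 it was the lower edges that met. The anti-GFP run began at 41876781 and the anti-Myb run at 41882139, 5.36 kb apart. The peaks before them were late, at 53.0% (row 3886) and 51.3% (row 1750). The anti-GFP run continued to 47594010 over 56 peaks and 5.72 Mb. The anti-Myb run ended at 44471456 after 21 peaks and 2.59 Mb, before the peak chr19:44722135-44722447 (row 2882, 84.5%). Outside this run, on either side, lay a further 10 anti-Myb members in the first 10% of the list.

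On chromosome 3 the runs overlapped over 1.37 Mb, from 94850504 to 96218638. The anti-GFP run spanned 94386246 to 96218638 with 21 peaks, and the anti-Myb run 94850504 to 100351616 with 22 peaks, 4 of which lay above the segment. The anti-GFP peak before its run was 985.5 kb away at 47.5% (row 3481), and the one after it 40.2 kb away at 35.1% (row 2574). In the steps next to the borders the lists parted, except from 100 to 101 Mb, where both had early rows. From 88 to 89 and from 89 to 90 Mb there were 18 and 12 anti-GFP peaks with medians of 18.8% and 15.2%, but 5 and 2 anti-Myb peaks with medians of 47.6% and 62.1%. From 100 to 101 and from 101 to 102 Mb the 5 and 7 anti-Myb peaks had medians of 9.03% and 12.9%, and the 2 and 3 anti-GFP peaks 16.4% and 67.4%. The earliest peaks from 100 to 101 Mb stood at 0.532% for anti-GFP and 0.616% for anti-Myb, and 1 peak of each list was shared. The extent of every run followed its level: with 10% in place of 25% the runs were between 0.249 and 1.13 Mb long, and those of the 2 lists no longer overlapped on chromosomes 9 and 19.

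Windows of 10 Mb moved in steps of 1 Mb along the same chromosome, with at least 10 peaks each, showed how the segments compare with their surroundings. Of windows clear of the segment, none was earlier on chromosome 3, where the lowest such medians were 20.5% for anti-GFP over 100 windows and 34.0% for anti-Myb over 46. On chromosome 9, 2 of 98 clear anti-GFP windows were earlier, the lowest at 7.77%, and none of 66 anti-Myb windows, the lowest at 19.8%. On chromosome 19, none of 40 clear anti-GFP windows and 1 of 34 anti-Myb windows were earlier, with lowest medians of 25.9% and 22.6%. Shifted windows that overlap the segments were earlier in some cases. The earliest windows began at 95 Mb on chromosome 3 in both lists (14.2% and 12.9%), and at 13 Mb (6.65%) on chromosome 9 for anti-GFP. For anti-Myb on chromosome 9 no window was earlier than the segment. On chromosome 19 the earliest windows began at 42 Mb for anti-GFP (13.4%) and at 47 Mb for anti-Myb (16.9%). Because the segments were chosen for early rows, their place among these windows largely restates that choice. Windows share peaks and are not independent.

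The closest peaks on either side of the borders, some of them several Mb away, were not set apart by their rows. At the lower border of chromosome 3, the peaks just inside and just outside stood at 13.5% and 28.2% for anti-GFP and at 24.6% and 51.6% for anti-Myb. At its upper border they stood at 40.3% and 32.3% for anti-GFP, and at 44.96% and 9.03% for anti-Myb. At the lower border of chromosome 9 the values were 50.6% inside and 8.11% outside for anti-GFP, and 12.7% and 26.1% for anti-Myb. At its upper border they were 73.0% and 14.2% for anti-GFP, and 57.9% and 83.5% for anti-Myb. On chromosome 19 they were 58.8% and 69.6% for anti-GFP and 28.6% and 91.6% for anti-Myb at the lower border. At the upper border they were 42.9% and 34.3% for anti-GFP, and 65% and 47.4% for anti-Myb. The earlier peak was inside in 6 of these 12 comparisons. The distances of these peaks from their border ran from 0.034 Mb (anti-GFP, inside the upper border of chromosome 3) to 5.71 Mb (anti-Myb, inside that of chromosome 9). The count is thus not a contrast at the borders themselves.

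**Figure D2:**
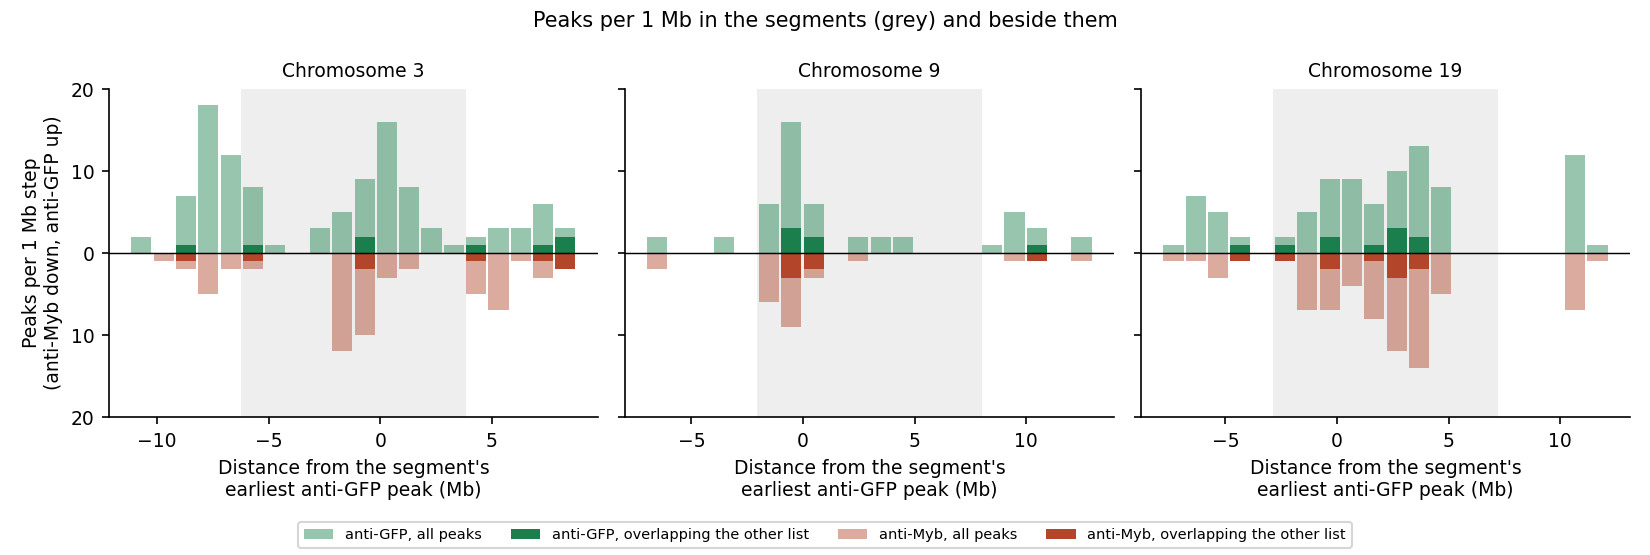
Number of peaks in each 1 Mb step of the segments (grey) and 5 Mb on either side, against the distance in Mb from the earliest anti-GFP peak of the segment; anti-GFP bars point up, anti-Myb bars point down, and the dark part of a bar counts peaks overlapping the other list. The chromosome 9 segment is filled in its first 3 steps, with 28 anti-GFP and 18 anti-Myb peaks, and the chromosome 19 segment ends in empty steps.

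Peaks were dense in the segments of chromosomes 3 and 19 but not, as a whole, in that of chromosome 9. The chromosome 3 segment held 5.4 anti-GFP peaks per Mb against 1.70 on the rest of the chromosome between its outermost peaks, a ratio of 3.18. For anti-Myb the values were 2.9 and 1.01 per Mb, a ratio of 2.88. Chromosome 19 held 6.2 against 4.43 anti-GFP peaks per Mb (1.40) and 5.8 against 1.80 anti-Myb peaks per Mb (3.22). Chromosome 9 held 3.4 against 3.34 anti-GFP (1.02) and 1.9 against 1.52 anti-Myb peaks per Mb (1.25). These ratios depend on the surroundings. Against only the 10 Mb on either side they were 1.33 and 1.29 on chromosome 3, 2.06 and 3.17 on chromosome 9, and 2.10 and 3.87 on chromosome 19, for anti-GFP and anti-Myb in this order.

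On chromosomes 9 and 19, but not on chromosome 3, both borders lay in long stretches without peaks. Of the 30 steps of 1 Mb in the segments, 7 held no peak of either list, 4 of them on chromosome 9, 2 on chromosome 19 and 1 on chromosome 3. On the rest of these chromosomes it was 34 of 111, 9 of 49 and 71 of 140 steps, in the same order. The stretch without a peak that began 7.81 Mb into the chromosome 19 segment was 5.27 Mb long, the longest of the 420 spaces between neighbouring peaks of that chromosome. On chromosome 9 a stretch of 4.0 Mb began 6.84 Mb into the segment and was the second longest of 589. The stretches around the lower borders were shorter, at 1.77 Mb on chromosome 19 (rank 4 by length) and 2.09 Mb on chromosome 9 (rank 14). The median space was 40.5 kb on chromosome 19 and 43.2 kb on chromosome 9. Over the 30 steps the numbers of peaks in the lists rose and fell together (Pearson's r = 0.70, Spearman's rho = 0.83). This is a description over neighbouring steps of the same pair of libraries. Over 10 steps each, r was 0.95 on chromosome 9, 0.87 on chromosome 19 and 0.37 on chromosome 3. The rank correlations were closer to each other, with rho of 0.87, 0.82 and 0.80 in the same order. The numbers also rose and fell together outside the segments. On the rest of chromosomes 9, 19 and 3, r was 0.70, 0.78 and 0.63, and rho 0.73, 0.78 and 0.74.

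Grouping of peaks within a list went both ways. Of the 29 anti-Myb members on chromosome 3, 13 (44.8%) had a neighbour of their own list within 10 kb, against 30 of 140 (21.4%) on the rest of the chromosome. For anti-GFP there it was 5 of 54 (9.26%) against 40 of 236 (16.9%). On chromosome 9 the shares were 23.5% against 16.3% for anti-GFP and 10.5% against 22.02% for anti-Myb. On chromosome 19 they were 9.68% against 21.96% for anti-GFP and 24.1% against 16.1% for anti-Myb. The segment thus had the lower share in 3 of 6 comparisons. The groups of 3 peaks were chr3:96258452-96268078 in the anti-GFP list, and chr3:94730245-94746683, chr19:42809473-42827850 and chr19:45295833-45298836 in the anti-Myb list. The last spans 3.0 kb and ranged from row 268 to row 1274, and each of the chromosome 19 groups had 1 peak that overlapped the anti-GFP list.

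In the whole lists, 607 peaks of each overlapped the other by at least 1 bp, which is 8.28% of anti-GFP and 17.8% of anti-Myb peaks. Among the members 17 pairs overlapped, 11.3% of the 150 anti-GFP members (exact 95% interval 6.74% to 17.5%) and 16% of the 106 anti-Myb members (9.63% to 24.4%). The interval of the members included the share of the whole list in both cases. Peaks in the first 25% of rows were shared more often than later ones in both whole lists (14.1% against 6.35% for anti-GFP, 23.8% against 15.8% for anti-Myb). The shares are therefore not independent of how the segments were chosen. Still, 349 of the 607 shared anti-GFP peaks and 404 of the 607 shared anti-Myb peaks stood in later rows.

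Chromosome 3 had the lowest shares. Overlap was found for 3 of 54 anti-GFP members (5.56%, 1.16% to 15.4%) and 3 of 29 anti-Myb members (10.3%, 2.19% to 27.4%), against 24 of 236 (10.2%) and 24 of 140 (17.1%) on the rest of the chromosome. Chromosome 9 had 5 of 34 (14.7%, 4.95% to 31.1%) and 5 of 19 (26.3%, 9.15% to 51.2%), against 38 of 369 (10.3%) and 38 of 168 (22.6%). Chromosome 19 had 9 of 62 (14.5%, 6.86% to 25.8%) and 9 of 58 (15.5%, 7.35% to 27.4%), against 13 of 214 (6.07%) and 13 of 87 (14.9%). In each of these 6 comparisons the interval of the segment included the share on the rest of its chromosome, except for anti-GFP on chromosome 19, where 6.07% lies under the lower bound of 6.86%. The interval of that rest, 3.27% to 10.2%, overlapped the interval of the segment. The intervals cover the counting of peaks only.

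The shares were also taken over early rows only, since peaks in early rows of the whole lists were shared more often. In the first 25% of rows of the whole lists, 14.1% of such anti-GFP peaks and 23.8% of such anti-Myb peaks were shared. In the segments it was 14 of 99 anti-GFP members (14.1%, 7.95% to 22.6%) and 13 of 67 anti-Myb members (19.4%, 10.8% to 30.9%). On chromosome 3 it was 2 of 30 (6.67%, 0.818% to 22.1%) and 2 of 20 (10.0%, 1.23% to 31.7%). On chromosome 9 all 5 shared pairs were within the first 25% of both lists, out of 27 anti-GFP and 16 anti-Myb members there.

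The shared pairs of chromosome 9 lay in 1 stretch, between 21025228 and 22272801. The earliest by mean row position joined chr9:22018676-22019012 (row 3) with chr9:22018566-22018878 (row 58), with centres 122 bp apart. The next joined chr9:21767170-21767506 (row 480) with chr9:21767113-21767425 (row 50), 69 bp apart, and the third chr9:21025228-21025564 (row 253) with chr9:21025391-21025703 (row 259), 151 bp apart. All 5 anti-GFP peaks of these pairs stood within the first 7.75% of their list. On chromosome 3 the pairs were chr3:95392115-95392451 (row 752) with chr3:95392327-95392639 (row 288), chr3:95085964-95086300 (row 191) with chr3:95086255-95086567 (row 840), and chr3:90294875-90295211 (row 1962) with chr3:90294677-90294989 (row 2112). Their centres were 200, 279 and 210 bp apart. None of these 3 pairs had centres within 100 bp, against 7 of 24 pairs on the rest of the chromosome. Among all pairs outside the segments it was 226 of 590. With 3 pairs, no difference can be read from this.

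The earliest pair of chromosome 19 joined chr19:44271821-44272157 (row 22) with chr19:44271748-44272060 (row 60), 85 bp apart. The next were chr19:42827291-42827627 (row 4) with chr19:42827538-42827850 (row 229), 235 bp apart, and chr19:45676768-45677104 (row 563) with chr19:45677044-45677356 (row 112), 264 bp apart. The 9 pairs of this segment spread over much of it, from 40892949 to 46963341, and their mean row positions from 1.03% to 59.6%. Over the 17 pairs of the segments the median distance between centres was 167 bp (25 to 279 bp), against 143 bp (1 to 324 bp) over the other 590 pairs.

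**Figure D3:**
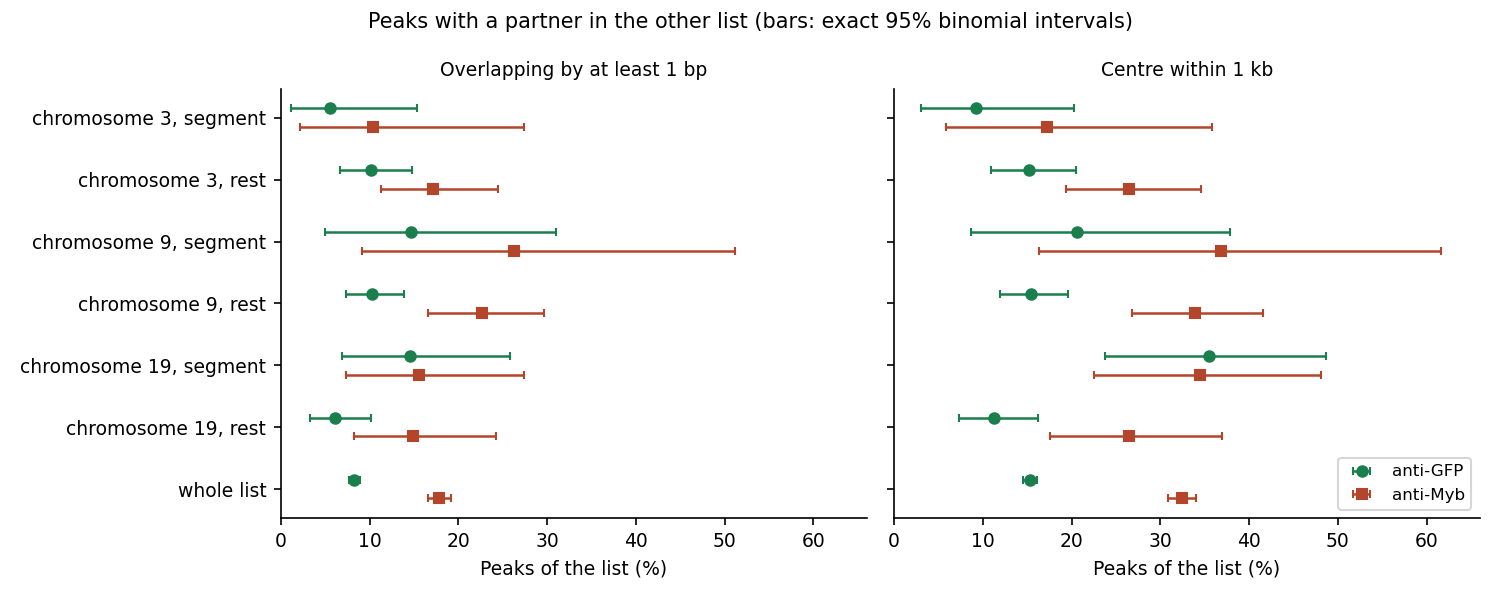
Percent of peaks that overlap the other list (left) or have a centre of the other list within 1 kb (right), for each segment, the rest of its chromosome and the whole list; circles are anti-GFP and squares anti-Myb, and bars are exact 95% binomial intervals. The anti-GFP peaks of the chromosome 19 segment are at 35.5% on the right, against 11.2% on the rest of the chromosome, with no split by row position.

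In the chromosome 19 segment more anti-GFP peaks lay close to an anti-Myb peak without overlapping it than on the rest of the chromosome. A centre of the other list within 1 kb was found for 15.3% of all anti-GFP and 32.5% of all anti-Myb peaks. In the chromosome 19 segment it was found for 22 of 62 anti-GFP members (35.5%, exact 95% interval 23.7% to 48.7%), against 24 of 214 on the rest of the chromosome (11.2%, 7.32% to 16.2%). For anti-Myb it was 20 of 58 (34.5%, 22.5% to 48.1%) against 23 of 87 (26.4%, 17.6% to 37.0%). Leaving out overlapping peaks, 13 anti-GFP members (21.0%, 11.7% to 33.2%) had a neighbour within 1 kb, against 11 of 214 (5.14%, 2.59% to 9.01%) and 7.03% of the whole list. For anti-Myb it was 11 of 58 (18.97%, 9.87% to 31.4%) against 10 of 87 (11.5%, 5.65% to 20.1%) and 14.7% of the whole list, with overlapping intervals. The anti-Myb list was 3.22 times as dense in this segment as on the rest of the chromosome, and the part of that density in these shares was not tested. On chromosomes 3 and 9 such neighbours were found for 2 members of each list. In the whole anti-GFP list, peaks in the first 25% of rows overlapped the other list more often than later ones (14.1% against 6.35%). The shares within 1 kb were not split by row position, so they are not independent of how the segment was chosen. Their intervals cover the counting of peaks only.

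All 17 neighbouring pairs of the segments that did not overlap had centres 327 to 565 bp apart, with a median of 449 bp. The 538 such pairs in the whole series had a median of 488.5 bp, and 75.8% were at most 600 bp apart. That limit lies above the highest distance of the members, so all of them meet it and no tighter spacing can be read from it. With peaks 337 and 313 bp wide, pairs that do not overlap cannot have centres much closer than 327 bp. Of the neighbouring pairs on chromosome 19, chr19:44322329-44322665 (row 112) and chr19:44322668-44322980 (row 208) were separated by 2 bp. Another joined chr19:46226293-46226629, an early anti-GFP peak (row 66), with chr19:46226754-46227066 in the middle of the anti-Myb list (row 1569), 124 bp apart. The pair chr19:42321427-42321763 (row 266) and chr19:42321883-42322195 (row 85) was early in both lists and 119 bp apart. These peaks were named after their values were seen.

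Each peak name carries a running number within its chromosome, and some numbers are skipped. Members had low numbers as they had early rows, with a median of 37 against 140 on the rest of the chromosome for anti-Myb on chromosome 3, so the numbers skipped beside them are not independent of how the segments were chosen and are a description. For anti-Myb on chromosome 3 only 6 numbers were missing directly before the 29 members, 0.207 per peak, against 819 before the other 140 peaks (5.85 per peak). On chromosome 9 it was 28 before 19 members (1.47) against 1035 before 168 peaks (6.16), and on chromosome 19 364 before 58 members (6.28) against 983 before 87 peaks (11.3). For anti-GFP the values per peak were 4.48 against 13.0 on chromosome 3, 3.85 against 6.83 on chromosome 9, and 7.47 against 14.0 on chromosome 19. The medians did not follow these means on chromosome 19, where 5 numbers were skipped before the median anti-GFP member and 3 before the median other peak, and 3 against 2 for anti-Myb. For anti-Myb on chromosome 3 the median was 0 in both the segment and the rest, with none skipped before 26 of 29 members and 82 of 140 other peaks. For anti-Myb on chromosome 9 it was 0 against 1, and for anti-GFP on chromosomes 3 and 9 it was 1 in both.

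Chromosome 19 had the most numbers skipped early in its series. Among its first 30 listed peaks by running number, 19 anti-GFP and 21 anti-Myb peaks were members. Up to the 30th listed peak 245 anti-GFP numbers were skipped, whereas 1 to 44 (median 6) were skipped on the 17 chromosomes without a segment, counting chromosomes 1 to 19 and X. For anti-Myb it was 65 on chromosome 19, against 0 to 50 (median 4). Chromosomes 3 and 9 had 24 and 27 skipped anti-GFP numbers and 3 and 29 skipped anti-Myb numbers. On chromosome 9 both series began with a gap and then a member: the first listed anti-GFP number was 7, at chr9:22018676-22019012, and the first listed anti-Myb number was 15, at chr9:21117954-21118266. The files do not say what the skipped numbers were or where they lay.

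**Figure D4:**
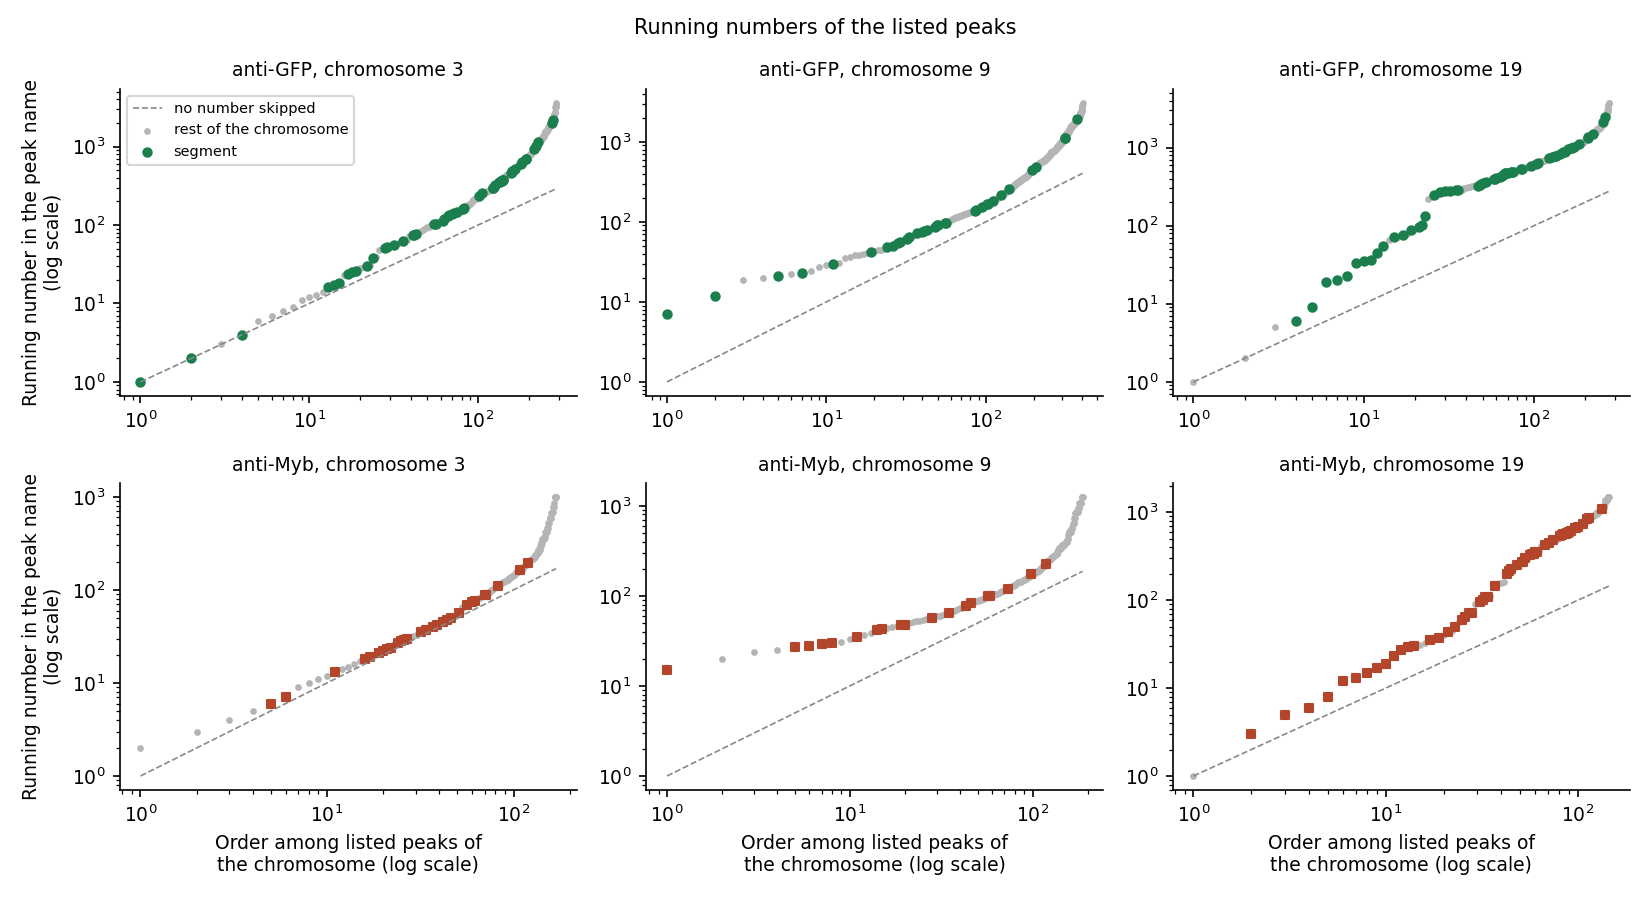
Running number in the peak name against the order of the peak among the listed peaks of its chromosome, both on log scales; coloured points are members (circles anti-GFP, squares anti-Myb), grey points the rest of the chromosome, and the dashed line marks a series with no number skipped. Chromosome 19 leaves the dashed line early in the anti-GFP list, with 245 numbers skipped up to the 30th peak, and anti-Myb members on chromosome 3 stay close to it.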

How the data were processed

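Peaks of 2 CUT&RUN libraries from MEL cells, 1 per group, were analysed. Per the submitters' processing notes, deepTools 3.4.2, HOMER 4.10.3, Picard 2.17.11, SAMtools 1.11, STAR 2.7.9a, Trim Galore 0.6.6 and the mm9 build were used. The role of each, the peak threshold, duplicate handling and any control were not given in the sources used here, and each could change which peaks are listed. The score deposited by the authors was 1 in every row. The coordinates, as deposited by the authors, were 0-based and are printed 1-based.

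The segments, members and lists of values were chosen with earlier results of these data known. Centres, row positions, overlaps (at least 1 bp, checked with bedtools 2.31.1), densities, running numbers and early runs were computed with SciPy 1.17.1, pandas 2.3.3 and NumPy 2.4.6 on Python 3.11.15. Overlap counting and run finding were checked on simulated lists with planted answers. Shares carry exact Clopper-Pearson 95% intervals, which cover the counting of peaks only; peaks of 1 library are not replicates, so no test was made. Read depth is unknown.

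Named by rule were the 3 earliest rows and 3 earliest overlapping pairs of each segment, run edges, border peaks and groups of 3 peaks within 10 kb. The alternatives were other overlap rules, run levels, densities and orders.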

Additional observations from a re-analysis of the deposited data

How the results depend on the processing

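Each choice was changed in turn, giving 75 alternative values, of which 40 stayed within 1.5 times the reported value or, for shares, within its interval. The medians of row position moved when positions were counted among the peaks of the chromosome (26.6% on chromosome 3 and 22.3% on chromosome 19, anti-GFP) or in the order of running numbers (27.1%, 12.0% and 23.2% on chromosomes 3, 9 and 19, anti-GFP). The early runs moved at every other level. At 10% they spanned 1.13, 0.360 and 0.733 Mb for anti-GFP and 0.278, 0.286 and 0.249 Mb for anti-Myb on chromosomes 3, 9 and 19. At 50% they spanned 65.1, 41.4 and 19.6 Mb and 33.8, 42.3 and 16.9 Mb, since a higher level admits later rows. Over the first 50% of rows, the density ratios moved to 1.90 and 2.33 for anti-GFP on chromosomes 9 and 19, and to 5.90, 2.29 and 5.67 for anti-Myb on chromosomes 3, 9 and 19. The segments were chosen for early rows, so this cut takes away relatively more peaks of the rest, and the rise restates that choice. Against 10 Mb on either side the density ratios moved to 1.33 and 1.29 on chromosome 3, 2.06 and 3.17 on chromosome 9, and 2.10 for anti-GFP on chromosome 19. With an overlap of 50% of the shorter peak, chromosome 3 had no shared pair (0% of either list). With a gap of up to 500 bp, or centres within 1 kb, the shared percent on chromosome 19 was 35.5 for anti-GFP and 34.5 for anti-Myb, and with the gap the median centre distance there was 385 bp. Numbers skipped after, and not before, an anti-Myb member of chromosome 3 averaged 0.724. Except where stated, the cause was not tested.

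No paired analysis was possible because each list is 1 library. The depth is unknown, so it cannot be said how many reads separate a listed peak from an unlisted one, and the intervals cover the counting of peaks only. The order of the rows and the meaning of skipped numbers are not stated in the files, and neither list was set against a control library.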
